A study of Mus musculus with 12 samples.

Results

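RNA from Peyer's patch (PP) B cells was sequenced in 6 sham controls and 6 stroke mice, and the genes described here are 42 genes of plasma cell secretion and the unfolded protein response. They were taken by gene name from a table of 36175 genes, in which 43 entries carried one of the 42 names because Ddit3 was listed a second time at 0 in all 12 mice. A filter that asked for values of 1 or more in each of the 12 mice left 12590 genes for testing, all 42 among them. The mice were C57BL/6JHsd wild-type males, aged 10 to 12 weeks according to the methods, with 1 library for each mouse. Stroke mice carry the treatment label brain injury and underwent occlusion of the middle cerebral artery by a filament for 1 h. In sham controls the middle cerebral artery was not occluded, and cells of all mice were collected 18 h after surgery. B cells were enriched with a magnetic kit that left some intestinal epithelial and endothelial cells, and then with CD45 beads, after which the methods state a very high purity of B cells. Values are the deposited normalized TPM, a transcript abundance that accounts for transcript length, and no read counts were given, so the depth behind each value is unknown.

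Plasma cells secrete antibodies in very large amounts, and antibody chains enter the endoplasmic reticulum (ER) through a protein channel, lose their signal peptide, fold with the help of chaperones and are joined by disulfide bonds. When unfolded proteins accumulate, the sensors IRE1α, ATF6 and PERK raise the capacity of the ER. This is the unfolded protein response, and its factor XBP1 is needed for the secretory function of plasma cells. In PP, most B cells are not yet plasma cells, and secretory epithelial cells of the intestine use much of the same machinery.

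The libraries differed in ways that the groups did not account for. Column totals were lowest in sham control 6, at 559570, and highest in sham control 1, at 1404340. The summed level of 10 epithelial markers was 2441 and 2129 in sham controls 1 and 2 but 37.2 in sham control 6, and it ranged from 34.8 to 1328 in stroke mice. No marker of this list was at 0 in any mouse, and Epcam ran from 1.53 in sham control 6 to 177 in sham control 2. Secretory epithelial markers, such as Muc2 and Agr2, summed to 34.4 to 863 in sham controls and 60.3 to 330 in stroke mice. The 8 B cell markers summed to between 1756 and 3081, and the 7 T cell markers summed to between 34.7 and 134 in all mice. The joining chain gene Jchain was lowest in sham control 6, at 83.6, and highest in sham control 1, at 969. B cell transcripts were thus abundant in every library, whereas Jchain, which marks plasma cells, varied widely. Stroke mouse 6 had 30060 genes above 0, compared with 20626 to 23947 in the other mice.

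The promoters of 35 of the 42 genes (41 promoters, as some genes have more than 1) were found among the 32851 promoters of 27025 genes in RefSeq on GRCm38.p6, each from 250 bases before to 50 bases after a gene start. The ER stress element (ERSE), a sequence bound by NF-Y together with ATF6 or XBP1, was searched on both strands as CCAAT and CCACG with 9 bases of any kind between them. It was found in 8 of the 35 genes (22.9%), compared with 37 of all 27025 genes (0.137%) and 39 of all promoters (0.119%). The 8 genes were 6 chaperones, the isomerase gene Pdia6 and Derl3. Manf, also a chaperone, had no promoter entry, so not all 10 chaperones were searched. Among 56 other genes of these pathways with a promoter, 2 (Ero1b and Syvn1) held the element. It is shown in each of the 8 genes because NF-Y, ATF6 and XBP1 are known to act on such genes through it. Its outer parts are in capitals, written on the strand of the gene, and in Calr, Derl3, Creld2 and the second site of Hsp90b1 the element lies in the opposite orientation.
Hspa5, chr2:34772015-34772053, plus strand: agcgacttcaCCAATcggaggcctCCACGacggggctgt
Hsp90b1, chr10:86705628-86705666, minus strand: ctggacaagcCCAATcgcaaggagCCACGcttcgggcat
Hsp90b1, chr10:86705523-86705561, minus strand: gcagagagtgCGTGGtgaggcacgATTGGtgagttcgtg
Calr, chr8:84847065-84847103, minus strand: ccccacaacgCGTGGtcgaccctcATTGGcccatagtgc
Canx, chr11:50325790-50325828, minus strand: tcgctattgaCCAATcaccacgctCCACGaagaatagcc
Pdia6, chr12:17266481-17266519, plus strand: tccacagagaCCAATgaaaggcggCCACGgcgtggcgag
Dnajc3, chr14:118937817-118937855, plus strand: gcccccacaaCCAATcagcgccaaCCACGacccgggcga
Creld2, chr15:88819510-88819548, plus strand: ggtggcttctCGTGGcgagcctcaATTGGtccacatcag
Derl3, chr10:75893232-75893270, plus strand: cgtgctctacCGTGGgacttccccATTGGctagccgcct

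A second form of this element (ERSE-II, ATTGG and CCACG with 1 base of any kind between them, both strands) was found in Herpud1 and Dnajb11, that is in 5.71% of the 35 genes, 0.0444% of all genes and 0.0365% of all promoters. Herpud1 also held the element bound by ATF4 (TGATGCAA, both strands), which was found in 1.03% of all genes and 0.895% of all promoters. The XBP1 site TGACGTGG was found in Txndc5 and Txndc11, and in 0.714% of all genes and 0.676% of all promoters. ERSE-II of both genes, the ATF4 element of Herpud1 and the XBP1 site of Txndc5 are shown as examples of these forms, and that of Dnajb11 lies after the gene start.
Herpud1 ERSE-II, chr8:94386367-94386397, plus strand: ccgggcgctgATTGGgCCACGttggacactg
Dnajb11 ERSE-II, chr16:22857852-22857862, plus strand: ATTGGcCCACG
Herpud1 ATF4 element, chr8:94386307-94386334, plus strand: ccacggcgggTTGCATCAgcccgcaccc
Txndc5 XBP1 site, chr13:38528035-38528062, minus strand: gcctcgccgcTGACGTGGcgctagccgc

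Most of the 42 genes had a lower mean level in stroke mice than in sham controls, but the differences were mostly smaller than the spread between mice. The log2 fold change was below 0 for 34 of the 42 genes, compared with 48.6% of all genes tested, and for 28 of the 42 with all values rescaled to the same total or with antibody genes removed first. The median was -0.24 over the 42 genes and 0.0069 over all genes, and -0.11 and 0.13 with the same total. With the epithelial markers, whose median was -1.65, as a covariate chosen after seeing the data, 20 of the 42 genes were below 0 and their median was 0.0048. At an unadjusted p under 0.05, 1 of the 42 genes (Sec61g) was lower and 0 were higher (limma), where 1.69% and 4.42% of all genes were called in these directions. The number lower was 20 without sham control 6, beside 9.2% of all genes. It was 0 without sham control 1 or 2 or stroke mouse 4 or 5, beside 1.29%, 1.14%, 1.35% and 1.24% of all genes. After Benjamini-Hochberg adjustment 0 genes of the table passed (0.0%), and the adjusted p of the 42 genes ran from 0.791 to 0.989 (limma). By the count of groups that do not overlap, 0 of the 42 genes separated stroke mice from sham controls, beside 0.437% of all genes. In such bulk samples, fewer cells of a type and less RNA per cell cannot be told apart.

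**Figure D1:**
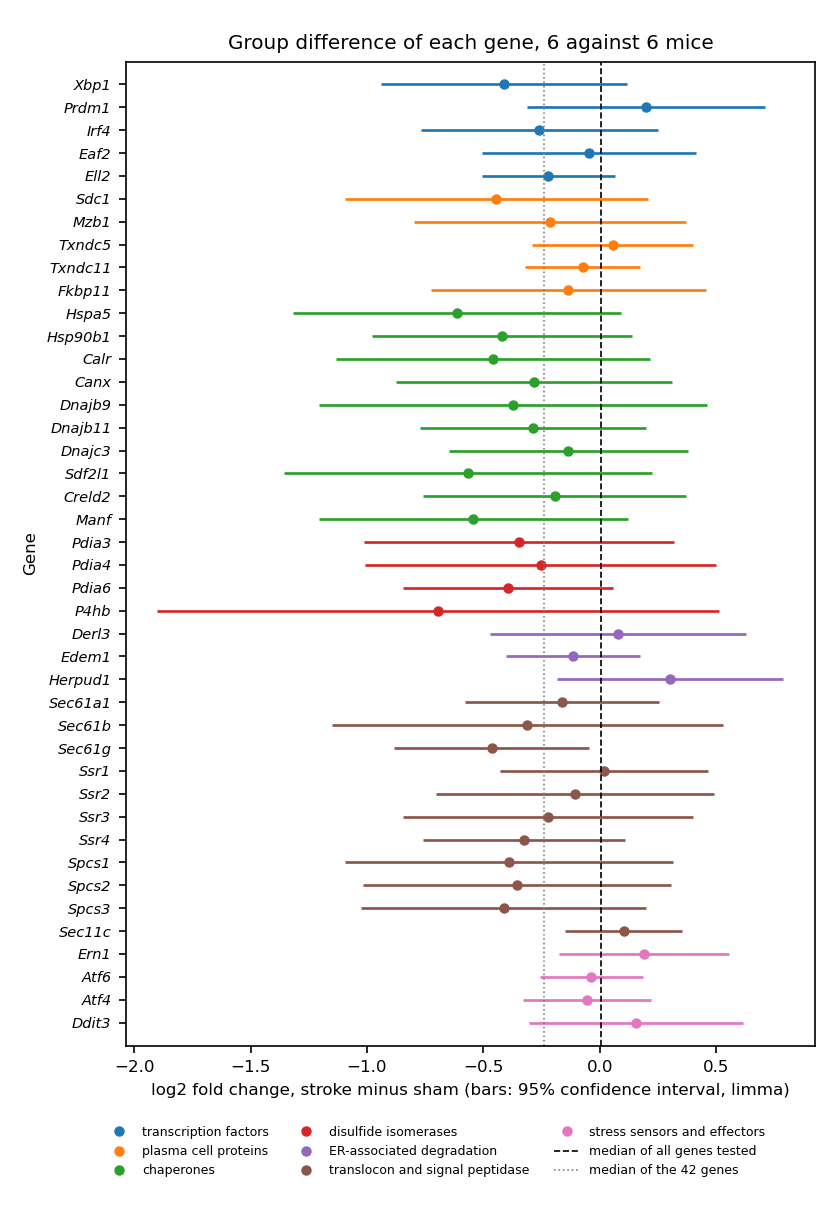
Log2 fold change of each of the 42 genes, stroke mice minus sham controls (x axis), with the 95% confidence interval from limma as bars and colours for the roles of the genes. 34 points lie below 0, and the interval of Sec61g alone does not reach 0.

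The size of the differences varied by role. All 10 chaperones and all 4 disulfide isomerases had log2 fold changes below 0, with medians of -0.40 and -0.37 (-0.61 and -0.60 without sham control 6, -0.24 for both without stroke mouse 5), and stayed below 0 with the values rescaled to the same total, by median-of-ratios or by quantiles. With the epithelial covariate described below, however, 6 of the 10 chaperones (median -0.091) and 3 of the 4 isomerases (median -0.016) were below 0, and without stroke mouse 5 this held for 3 of the 4 isomerases. The 11 genes of the translocon and signal peptidase had a median of -0.31, and 9 of them were below 0. Their median was -0.48 without sham control 6, where 10 of 11 were below 0, and -0.18 with the same total. It was -0.16 without sham control 1 or stroke mouse 5, -0.12 without sham control 2 and 0.037 with the covariate, where 5 of 11 were below 0. The medians were 0.08 for the 3 genes of ER-associated degradation and 0.06 for the 4 stress sensors and effectors, but -0.029 and -0.020 without sham control 2, and the former was -0.051 without stroke mouse 6. In the other direction, they were 0.20 and 0.18 with the same total, and the former was 0.22 without stroke mouse 5. The 5 transcription factors and the 5 plasma cell proteins lay between, at -0.22 and -0.13. They were at -0.097 and -0.019 with the same total, and at -0.091 and 0.071 with the covariate. With single mice omitted, the median of the plasma cell proteins ran from -0.29 without stroke mouse 1 to -0.012 without stroke mouse 5. These are descriptions of lists, and differences between roles were not tested.

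The spread between mice of 1 group was also larger in these genes than in most others. The standard deviation (SD) within groups on the log2 scale had a median of 0.47 over the 42 genes and 0.31 over all genes tested, and 34 of the 42 genes were above the latter value. It was largest in P4hb (1.11) and smallest in Atf6 (0.12). Sham control 2 held the highest value for 18 of the genes and sham control 1 for 11, whereas sham control 6 held the lowest for 24 and stroke mouse 5 for 14. Thus, both the top and the bottom of the range were mostly set by sham controls.

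**Figure D2:**
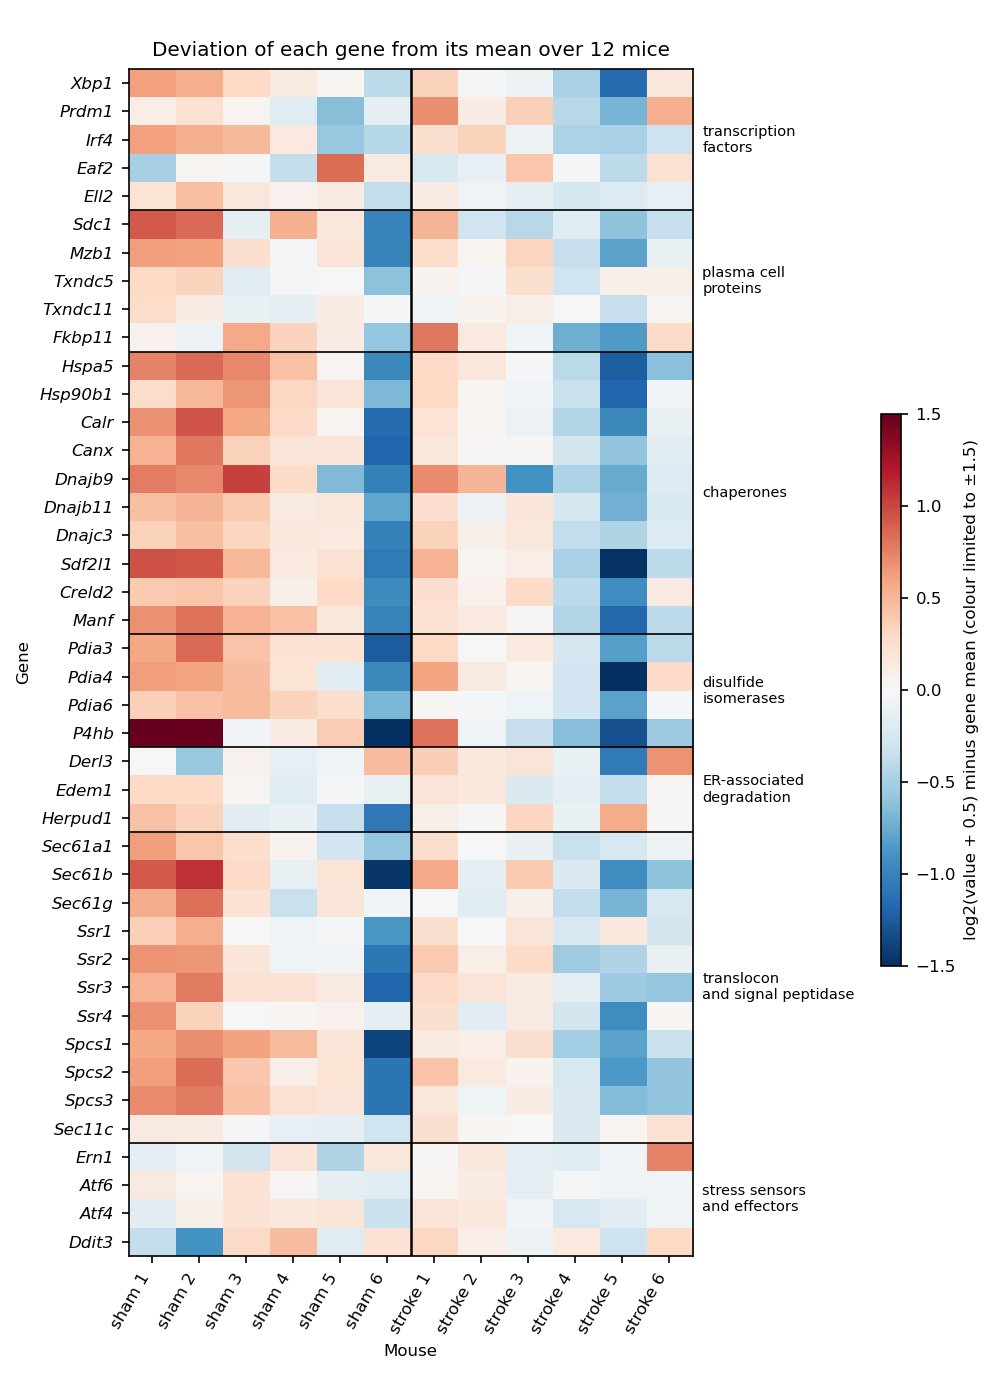
Deviation of log2(value + 0.5) from the mean of the gene over 12 mice (colour, limited to 1.5 in either direction), for the 42 genes (rows, by role) in each mouse (columns). Sham controls 1 and 2 are above the mean and sham control 6 and stroke mouse 5 below it in most rows, and the row of Atf6 is the palest.

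Among the transcription factors, Xbp1 drives the expansion of the ER in plasma cells and is activated by splicing of its mRNA, which these gene values do not resolve. Xbp1 (chromosome 11, 5520659 to 5525893 on GRCm38) had a lowest, median and highest value of 64.0, 98.2 and 129 in sham controls and of 37.5, 81.3 and 107 in stroke mice. The groups overlapped widely, and stroke mouse 5 was the lowest of all mice. The means were 99.7 ± 24.2 (SD, n = 6) and 76.9 ± 24.7 (SD, n = 6). This gave a log2 fold change of -0.41 (SE, standard error, 0.25, 95% interval from -0.94 to 0.12, limma adjusted p = 0.793), and 5 of 6 stroke mice were below the sham mean (exact two-sided permutation test, p = 0.154).

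Prdm1 encodes BLIMP-1, the repressor that ends the B cell program on the way to the plasma cell. Its mean was higher in stroke mice, with a lowest, median and highest value of 6.13, 9.44 and 11.5 in sham controls and of 5.84, 11.7 and 16.1 in stroke mice. The stroke mice spanned the whole range of the sham controls and exceeded it in 3 mice. The log2 fold change of Prdm1 was 0.20 (SE 0.24, limma adjusted p = 0.875), with means of 9.27 ± 1.90 (SD, n = 6) and 11.2 ± 4.07 (SD, n = 6), and the exact permutation p was 0.452. It was 0.081 without stroke mouse 1 and 0.36 without stroke mouse 5.

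Irf4, a factor for both germinal centre entry and plasma cell fate, ran from 48.1 to 110 in sham controls, with a median of 89.8, and from 51.2 to 90.6 in stroke mice, with a median of 62.7. Its lowest value was in sham control 5 and not in the mice that were lowest for most other genes. The means were 82.5 ± 26.9 (SD, n = 6) and 67.2 ± 17.1 (SD, n = 6), with a log2 fold change of -0.26 (SE 0.24, limma adjusted p = 0.849) and an exact permutation p of 0.327. Ell2 is an elongation factor that favours the secreted form of the heavy chain mRNA, and Eaf2 encodes a partner of this family of factors. Ell2 had a log2 fold change of -0.22 and a small spread (SD 0.21), with all 6 stroke mice below the sham mean. Eaf2 was at -0.05.

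Of the plasma cell proteins, Mzb1 encodes an ER protein that assists the assembly and secretion of antibodies. It was the most abundant of the group, with a lowest, median and highest value of 82.2, 191 and 255 in sham controls and of 94.0, 160 and 206 in stroke mice. All stroke mice fell within the range of the sham controls. A log2 fold change of -0.21 was found (SE 0.27, 95% interval from -0.80 to 0.37, limma adjusted p = 0.878), with means of 189 ± 63.5 (SD, n = 6) and 158 ± 42.4 (SD, n = 6) and an exact permutation p of 0.485. Mzb1 was at -0.44 without sham control 6, at -0.075 without stroke mouse 5 and at 0.071 with the epithelial covariate.

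Sdc1 encodes CD138, the surface marker by which plasma cells are sorted, and is also made by epithelial cells. It was the least abundant of the 42 genes, at 2.79, 8.0 and 12.0 (lowest, median and highest) in sham controls and 3.84, 4.79 and 8.90 in stroke mice. The mice with the highest Sdc1, sham controls 1 and 2, also had the highest epithelial markers. Its log2 fold change was -0.44 (SE 0.30, limma adjusted p = 0.814), with means of 7.96 ± 3.57 (SD, n = 6) and 5.35 ± 1.81 (SD, n = 6), and the exact permutation p was 0.216. The remaining genes of this group differed less. Fkbp11, a prolyl isomerase of secretory cells, had a log2 fold change of -0.13. Txndc11 and Txndc5, which encode thioredoxin domain proteins of the ER, were at -0.07 and 0.06.

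The chaperone BiP, encoded by Hspa5, binds unfolded heavy chains and holds the stress sensors inactive. Hspa5 (chromosome 2, 34771970 to 34777547), whose ERSE is shown above, had a lowest, median and highest value of 109, 321 and 385 in sham controls and of 90.0, 184 and 262 in stroke mice. All stroke mice were below 4 of the 6 sham controls, and sham control 6 lay below all stroke mice but stroke mouse 5. The means were 285 ± 105 (SD, n = 6) and 183 ± 65.0 (SD, n = 6). Hspa5 thus had a log2 fold change of -0.61 (SE 0.33, 95% interval from -1.32 to 0.09, limma adjusted p = 0.791), with 6 of 6 stroke mice below the sham mean (exact permutation p = 0.123).

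Sdf2l1, a partner of BiP, was at 10.3, 28.7 and 43.0 in sham controls and 7.55, 19.7 and 31.9 in stroke mice (lowest, median and highest). Again sham control 6 and stroke mouse 5 were the lowest of their groups. The means were 29.6 ± 12.3 (SD, n = 6) and 19.7 ± 8.33 (SD, n = 6), with a log2 fold change of -0.57 (SE 0.37, limma adjusted p = 0.793) and an exact permutation p of 0.206. The other chaperones and cofactors had log2 fold changes between -0.54 and -0.14. They were Manf, a secreted ER stress factor (-0.54), the lectin chaperones Calr (-0.46) and Canx (-0.28), the HSP90 of the ER Hsp90b1 (-0.42), the J proteins Dnajb9 (-0.37), Dnajb11 (-0.29) and Dnajc3 (-0.14) that act with BiP, and Creld2 (-0.19), an ER stress-inducible protein. Calr was the most abundant of the 42 genes, with a mean of 496 over 12 mice, followed by Hsp90b1 (334), Canx (265) and Hspa5 (234). The within-group SD of the chaperones ran from 0.42 in Dnajb11 to 0.76 in Dnajb9, so that these differences were of the size of 1 SD or less.

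**Figure D3:**
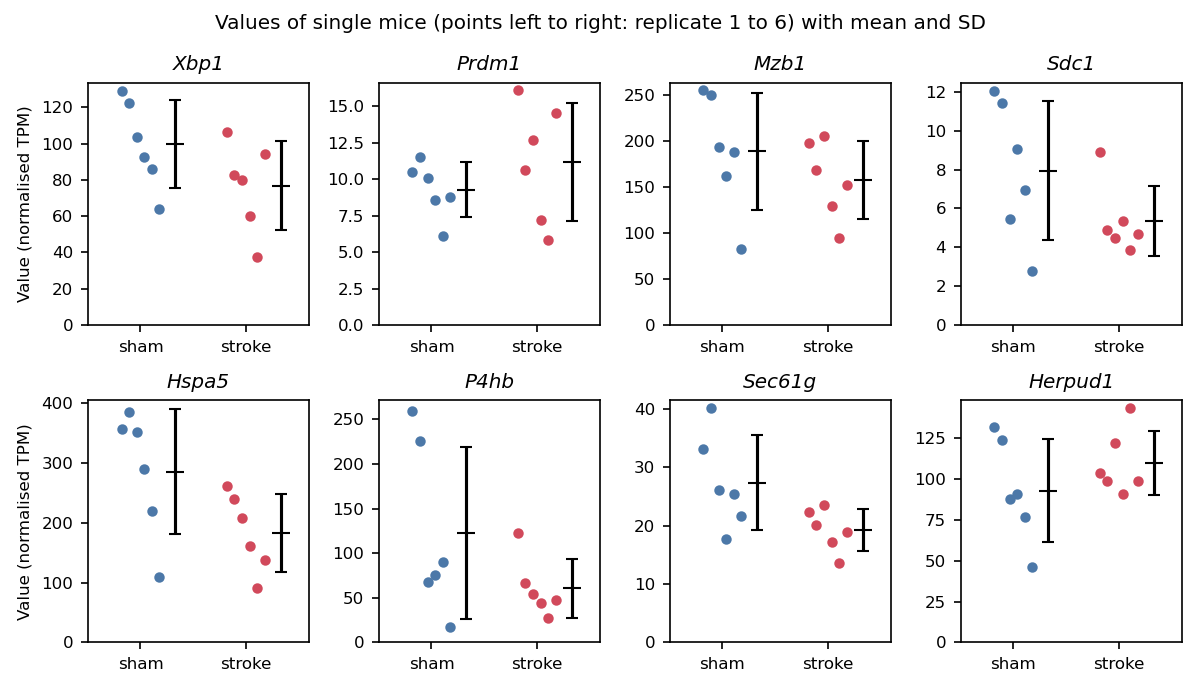
Values (normalised TPM) of 8 of the genes in single mice, in replicate order from left to right, with the mean and SD (n = 6) of each group beside the points. Every panel shows overlapping groups, and the high P4hb values of sham controls 1 and 2 stand apart from the other mice.

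Disulfide isomerases form and rearrange the bonds that join antibody chains. P4hb, which encodes the classical protein disulfide isomerase, had the largest log2 fold change of the 42 genes, -0.69, and also their largest spread, larger than that of 98.7% of all genes tested. It was at 260 and 225 in sham controls 1 and 2, between 67.5 and 90.6 in sham controls 3 to 5 and at 17.4 in sham control 6, compared with 27.6, 51.0 and 123 in stroke mice (lowest, median and highest). Epcam was at 147 and 177 in sham controls 1 and 2. The standard error of the difference was 0.56 (limma adjusted p = 0.831), with means of 123 ± 96.6 (SD, n = 6) and 60.7 ± 33.2 (SD, n = 6) and an exact permutation p of 0.297. The log2 fold change of P4hb ran from -1.16 without sham control 6 to -0.38 without sham control 1. Hspa5 was further below 0 than P4hb without sham control 1 (-0.53) or 2 (-0.50). This also held without sham controls 1, 2 and 6 and stroke mouse 6 together (-0.65). With the mean of the epithelial markers as a covariate, chosen after seeing the data, the log2 fold change of P4hb was -0.0025. Pdia6, Pdia3 and Pdia4 had log2 fold changes of -0.40, -0.35 and -0.25. Pdia6 had the smallest spread of the 4 isomerases (SD 0.38), and all 6 stroke mice, at 50.7 to 89.8, were below the sham mean of 106.

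In ER-associated degradation, misfolded proteins are returned to the cytosol and destroyed. Herpud1, which encodes a component of the ubiquitin ligase complex and is induced by ER stress, had the largest log2 fold change above 0 of the 42 genes. Its lowest, median and highest value was 46.0, 89.4 and 132 in sham controls and 91.0, 101.6 and 144 in stroke mice. Stroke mouse 5, which was low for the chaperones, had the highest Herpud1 of all mice, and sham control 6 had the lowest. Herpud1 had a log2 fold change of 0.30 (SE 0.23, 95% interval from -0.19 to 0.79, limma adjusted p = 0.821), with means of 92.9 ± 31.6 (SD, n = 6) and 110 ± 19.6 (SD, n = 6), 5 of 6 stroke mice above the sham mean and an exact permutation p of 0.253. It was called higher at an unadjusted p under 0.05 with all values rescaled to the same total (log2 fold change 0.43) and with antibody genes removed first (0.42). With these settings 2.76% and 2.8% of all genes were called higher, close to 1 gene in 42. Herpud1 was no longer the highest of the 42 genes without sham control 6 (0.12, with Ern1 at 0.24), without stroke mouse 5 (0.22, with Prdm1 at 0.36) and with quality weights (0.14, with Derl3 at 0.18). Derl3, a channel protein typical of secretory cells, had a log2 fold change of 0.08. Edem1, which directs glycoproteins to degradation, was at -0.11.

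The translocon moves nascent chains into the ER, and Sec61g encodes its small γ subunit. Sec61g (chromosome 11, 16500530 to 16508484) was at 17.7, 25.7 and 40.2 in sham controls and 13.7, 19.5 and 23.6 in stroke mice (lowest, median and highest). All 6 stroke mice were below the sham mean, but sham controls 4 and 6, at 17.7 and 21.7, lay within their range. The means were 27.4 ± 8.12 (SD, n = 6) and 19.3 ± 3.58 (SD, n = 6). The log2 fold change was -0.47 (SE 0.19, 95% interval from -0.88 to -0.05, limma adjusted p = 0.791), at an unadjusted p of 0.0319, with an exact two-sided permutation p of 0.0455. The unadjusted call was lost when sham control 1 or 2 or stroke mouse 4 or 5 was left out, with log2 fold changes from -0.44 to -0.35 and unadjusted p from 0.0601 to 0.0762 in limma. It was also lost with all values rescaled to the same total (-0.34), with antibody genes removed first (-0.35), with quality weights (-0.34), with the epithelial covariate (-0.32) and without sham controls 1, 2 and 6 and stroke mouse 6 together (-0.25).

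The other subunits did not pass the test. Sec61b, the β subunit, had a log2 fold change of -0.31 with an SD of 0.76, and Sec61a1, the pore itself, was at -0.16. Of the translocon-associated proteins, Ssr4, Ssr3, Ssr2 and Ssr1 were at -0.33, -0.22, -0.11 and 0.02. Among the signal peptidase genes, which encode the complex that removes the signal peptide, Spcs3, Spcs1 and Spcs2 were at -0.41, -0.39 and -0.36, whereas the catalytic subunit Sec11c was at 0.10 with a small SD of 0.17. For Spcs1 and Spcs3, all 6 stroke mice were below the sham mean.

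The within-group SDs of the stress sensors and effectors ran from 0.12 to 0.39. Ern1 encodes IRE1α, the nuclease that splices Xbp1 mRNA. It ran from 8.94 to 14.1 in sham controls (median 11.5) and from 11.0 to 21.0 in stroke mice (median 12.3), and only stroke mouse 6 was above the range of the sham controls. Its log2 fold change was 0.19 (SE 0.17, limma adjusted p = 0.846), with means of 11.7 ± 2.07 (SD, n = 6) and 13.6 ± 3.77 (SD, n = 6) and an exact permutation p of 0.333, and it was 0.060 without stroke mouse 6.

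Atf6, the sensor that is cut in the Golgi to release a transcription factor, had the smallest spread of the 42 genes, at 18.1, 20.6 and 23.5 in sham controls and 18.1, 19.8 and 22.0 in stroke mice. The groups overlapped almost fully, with means of 20.5 ± 2.16 (SD, n = 6) and 19.97 ± 1.298 (SD, n = 6). The log2 fold change was -0.04 (SE 0.10, 95% interval from -0.26 to 0.18, limma adjusted p = 0.949; exact permutation p = 0.623). Atf4 encodes the factor translated when PERK phosphorylates eIF2α, and Ddit3 encodes its target CHOP, which promotes cell death. Atf4 was at 74.7, 101.8 and 108 in sham controls and 79.0, 89.5 and 106 in stroke mice, with means of 95.9 ± 13.8 (SD, n = 6) and 91.9 ± 11.2 (SD, n = 6). Its log2 fold change was -0.06 (SE 0.13, limma adjusted p = 0.935; exact permutation p = 0.608). Ddit3 was at 17.5, 33.7 and 45.6 in sham controls and 26.6, 36.1 and 41.1 in stroke mice, so that the stroke mice lay inside the range of the sham controls. With means of 32.8 ± 10.5 (SD, n = 6) and 35.3 ± 5.63 (SD, n = 6), its log2 fold change was 0.16 (SE 0.21, limma adjusted p = 0.887; exact permutation p = 0.543). Both signs depended on the scaling or on single mice, as Atf4 was at 0.07 with all values rescaled to the same total and Ddit3 at -0.0070 without sham control 2.

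Of 67 other genes of these pathways, 61 passed the filter and 44 of them had log2 fold changes below 0, with a median of -0.09. Sil1, the nucleotide exchange factor of BiP, was called lower and the J protein gene Dnajb12 was called higher at an unadjusted p under 0.05. In each direction this is 1 of 61 genes, no more than the share of all genes called. Sil1 was at 25.0, 27.6 and 30.3 in sham controls and 20.3, 21.7 and 23.3 in stroke mice (lowest, median and highest). Every stroke mouse was below every sham control, as in 0.0874% of all genes tested. The means were 27.6 ± 2.08 (SD, n = 6) and 21.7 ± 0.969 (SD, n = 6), with a log2 fold change of -0.34 (SE 0.09, limma adjusted p = 0.716) and an exact permutation p of 0.00216, the smallest that 6 mice against 6 allow. Sil1 lost its unadjusted call with all values rescaled to the same total (log2 fold change -0.22). Dnajb12 had means of 23.9 ± 3.65 (SD, n = 6) and 28.8 ± 2.78 (SD, n = 6), with a log2 fold change of 0.27 (SE 0.13, limma adjusted p = 0.791; exact permutation p = 0.0152).

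The level of the 42 genes in each mouse was summarised as the median of their deviations from the mean over 12 mice, on the log2 scale. In sham controls 1 to 6 it was 0.52, 0.52, 0.27, 0.13, 0.12 and -0.83, and in stroke mice 1 to 6 it was 0.25, 0.05, 0.04, -0.28, -0.70 and -0.11. All sham controls were thus above 0 except for sham control 6, which was the lowest of all mice. This order did not hold for the 42 genes as a share of the column total. For sham controls 1 to 6 the share was 0.362%, 0.389%, 0.492%, 0.417%, 0.391% and 0.365%, and for stroke mice 1 to 6 it was 0.408%, 0.419%, 0.346%, 0.345%, 0.267% and 0.371%, so that sham control 3 was the highest, stroke mouse 5 the lowest and sham control 6 close to sham control 1. The median over all genes stayed between -0.13 and 0.09 in the same mice.

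**Figure D4:**
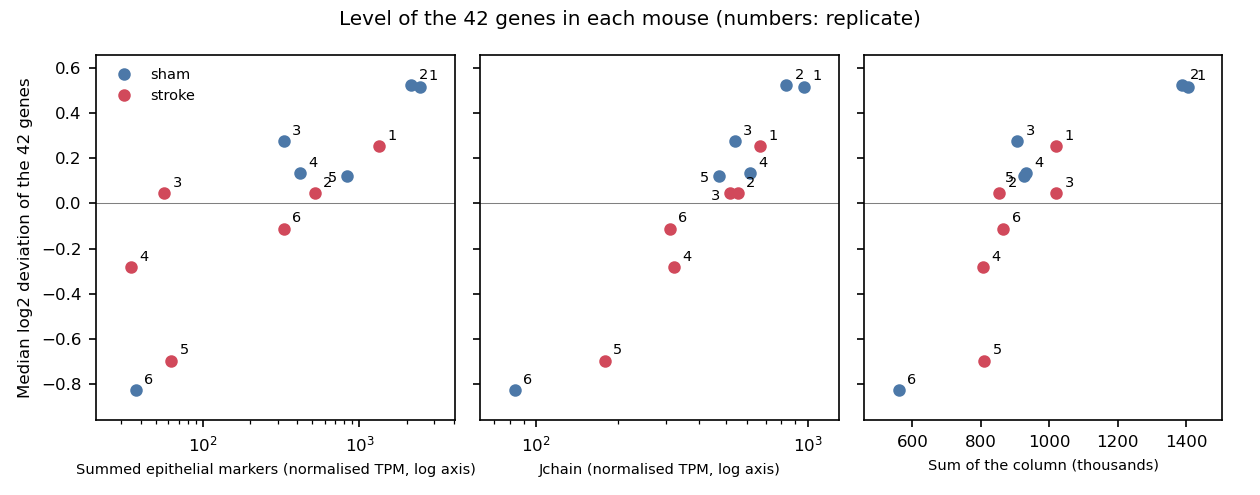
Median deviation of the 42 genes in each mouse (y axis, log2 scale) against the summed epithelial markers and Jchain (normalised TPM, log axes) and the sum of the column, with replicate numbers beside the points. Sham control 6 and stroke mouse 5 are at the bottom and sham controls 1 and 2 at the top right of each panel.

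The number of genes that passed changed when single mice were left out. Without sham control 6, 20 of the 42 genes were lower at an unadjusted p under 0.05 (limma), beside 9.2% of all genes, and the median log2 fold change was -0.42. These included 8 of the 10 chaperones, 3 of the 4 isomerases and 6 of the 11 genes of the translocon and signal peptidase, together with Xbp1, Ell2 and Sdc1. Without sham control 1, sham control 2, stroke mouse 4 or stroke mouse 5, 0 of the 42 genes were called in either direction, and the median was -0.16, -0.15, -0.20 and -0.15. In these fits 1.29%, 1.14%, 1.35% and 1.24% of all genes were called lower and 3.76%, 3.34%, 3.96% and 3.46% higher. When single mice were omitted, the log2 fold change ran from -0.87 to -0.43 for Hspa5, from -0.83 to -0.33 for Sdf2l1, from -0.53 to -0.22 for Xbp1, from -0.69 to -0.30 for Sdc1 and from -0.40 to -0.16 for Irf4. Without sham controls 1, 2 and 6 and stroke mouse 6 together, chosen after seeing the data, 2 genes (Pdia6 and Spcs1) were called lower, beside 1.92% of all genes, and the median was -0.25. This fit kept stroke mouse 5, which held the lowest value for 14 of the 42 genes. With stroke mouse 5 alone left out, the median was -0.15. The smallest adjusted p of the 42 genes was 0.22 over all alternatives tried (limma).

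The epithelial markers moved with the 42 genes only in part. Both were highest in sham controls 1 and 2. In stroke mice 3 and 4, however, the markers summed to 56.6 and 34.8, near the 37.2 of sham control 6. The medians of the 42 genes were 0.04 and -0.28 in these mice and -0.83 in sham control 6. The antibody gene Igkc was at 14467 and 12660 in sham controls 1 and 2, 2530 in stroke mouse 5 and 1801 in sham control 6. No fit used antibody genes as a covariate. Of the 10 epithelial markers, 6 passed the filter, all 6 had log2 fold changes below 0 with a median of -1.65, and 0 passed the test. Of the 10 secretory epithelial markers, 6 passed the filter, 4 of them below 0 and 2 above, with a median of -0.77, and 0 passed the test. When the mean log2 value of the 10 epithelial markers, without the secretory list, was added as a covariate, chosen after seeing the data, the median log2 fold change of the 42 genes was 0.0048. It was 0.05 over all genes, and 22 of the 42 were above 0. In this fit 0 of the 42 genes were called lower, beside 1.06% of all genes, and Herpud1 was called higher at a log2 fold change of 0.47 and an unadjusted p of 0.04 (limma), beside 3.92%. Hspa5 was at -0.29, Sdf2l1 at -0.17, Xbp1 at -0.16, Irf4 at -0.055, Sdc1 at -0.11 and Sec61g at -0.32. The antibody genes Igha, Igkc, Ighm and Jchain were also lower on average, with a median of -0.26, and none passed the test. Of the 8 B cell markers, 5 had log2 fold changes below 0 (median -0.15), among them Cr2 (-0.83), the one called lower at an unadjusted p under 0.05 (limma), Ms4a1 (-0.36), Cd79b (-0.27) and Cd79a (-0.26). The part of epithelial cells, plasma cells or other B cells in the differences was not tested beyond these values.

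The levels of 4 pairs of genes were compared from mouse to mouse. Over 12 mice and after median-of-ratios scaling, Mzb1 and Jchain had a Pearson's r of 0.947 and a Spearman's rho of 0.825 (permutation p = 1e-05, the smallest that the permutations can give, and 0.00152). Both are plasma cell genes, and r was 0.965 in sham controls and 0.943 in stroke mice. Without the 2 mice farthest from the median of Mzb1, stroke mouse 5 and sham control 6, r was 0.872 (permutation p = 0.0016). Xbp1 and Hspa5, a factor and a chaperone of the same response, had an r of 0.864 and a rho of 0.881 (permutation p = 0.00021 and 0.00042), with 0.939 in sham controls and 0.796 in stroke mice, and 0.784 without sham control 1 and stroke mouse 5 (permutation p = 0.0071).

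The chaperones Hspa5 and Hsp90b1 had an r of 0.929 and a rho of 0.958 (permutation p = 1e-05 for each), with 0.932 in sham controls and 0.902 in stroke mice, and 0.870 without sham control 6 and stroke mouse 5 (permutation p = 0.0008). Sdc1 followed the epithelial marker Epcam with an r of 0.884 and a rho of 0.853 (permutation p = 0.00018 and 0.00073), with 0.947 in sham controls and 0.649 in stroke mice, and 0.785 without sham controls 1 and 2 (permutation p = 0.0077). These were the 4 relations computed, and the Benjamini-Hochberg adjusted permutation p was between 2e-05 and 0.00021 for r and between 4e-05 and 0.00152 for rho.

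**Figure D5:**
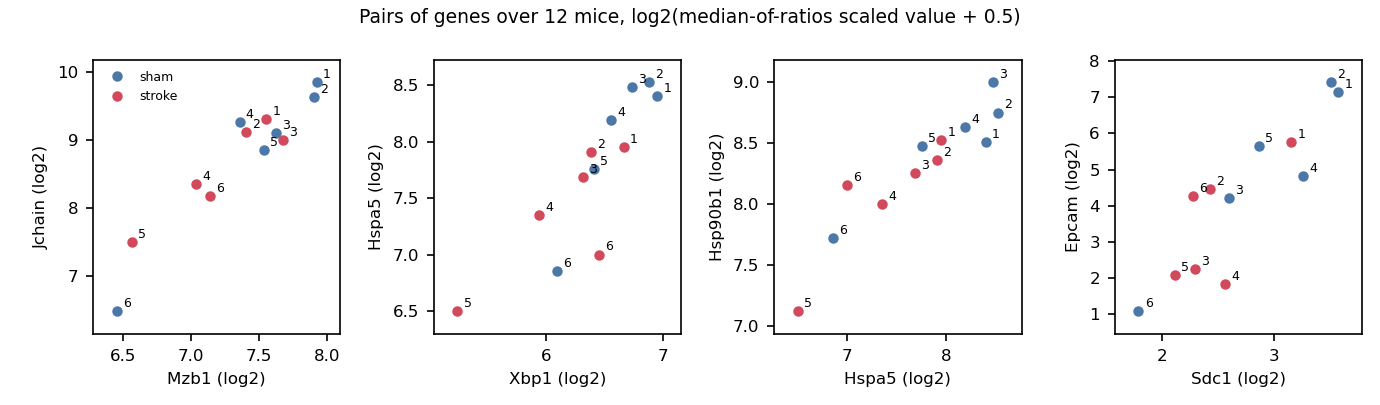
Levels of 4 pairs of genes in each of 12 mice, log2(median-of-ratios scaled value + 0.5) on both axes, with replicate numbers beside the points. In every panel the points rise from lower left to upper right, with sham control 6 or stroke mouse 5 at the bottom, and sham control 3 is the highest for Hsp90b1.

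Genes with and without an ERSE in the promoter were both lower on average. Of the 8 genes with an ERSE, 7 had a log2 fold change below 0, with a median of -0.34 and Derl3 as the exception. Of the 27 genes with a promoter and no ERSE, 21 were below 0, with a median of -0.25. The median within-group SD was 0.50 and 0.44. The difference between these lists was not tested. Txndc5 and Txndc11, with the XBP1 site, were among the genes that differed least between groups, whereas of the genes with ERSE-II, Herpud1 was at 0.30 and Dnajb11 at -0.29.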

How the data were processed

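According to the methods and the submitters' processing notes, reads were checked in FastQC and trimmed in Trimmomatic 0.39 by the authors, who used kallisto 0.48.0 for quantification on Ensembl release 102 (GRCm38) and sleuth 0.30.0 in R 4.1.2 for their tests. What was deposited is a signal for each gene, labelled as normalized TPM, and its columns do not add up to a common total. The test design had assumed plain TPM, and the same test was used for this signal. No read counts were given, so no interval for counting error can be stated. Reads of overlapping or near-identical genes cannot be told apart in these values.

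Here, genes below 1 in any of the 12 mice (6 per group) were left out, and log2(value + 0.5) of the remaining 12590 genes was compared between groups in limma 3.58.1 (R 4.3.3) without covariates, with Benjamini-Hochberg adjustment over all genes. On this scale the change of low genes is understated. Exact two-sided permutation tests of single genes used all 924 ways to assign the mice, and 4 relations by 100000 permutations. The code was tested on simulated data. The 42 genes and all lists were chosen with earlier results of these data known. Full values are given for genes with an unadjusted p under 0.05, for the 3 largest differences in each direction and for Xbp1, Prdm1, Irf4, Sdc1, Mzb1, Hspa5, Ern1, Atf6, Atf4 and Ddit3. Coordinates are from GENCODE M21 on GRCm38 (42 of 42 genes found) and promoters from RefSeq GRCm38.p6. Alternatives were other pseudocounts, filters and scalings, a replicate block, quality weights, an intensity trend, an epithelial covariate and leaving out mice.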

Additional observations from a re-analysis of the deposited data

Results flagged for a closer look

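Dixon's test was applied to 84 groups of 6 values (42 genes in each group), on the log2 scale of the limma fit and not on the normalised TPM. It takes the gap between the highest or lowest mouse and the nearest other mouse, divided by the range of the group. In 14 of the 84 groups this was above the critical value at the 95% level, where chance gives about 1 in 20.

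In 11 of the 14, sham control 6 was the low value. The gaps given here and below are shares of the range on the log2 scale, whereas the levels beside them are normalised TPM. The gap was 0.816 of the range in Pdia6 (55.1 normalised TPM in this mouse), 0.793 in Dnajc3 (9.41), 0.760 in Creld2 (20.5), 0.759 in Spcs1 (9.09), 0.703 in Dnajb11 (29.6), 0.696 in Pdia3 (41.4), 0.691 in Canx (110), 0.686 in Spcs3 (10.2), 0.673 in Ssr3 (16.0), 0.648 in Hsp90b1 (199) and 0.647 in Manf (47.8). The same mouse had the lowest Jchain and column total.

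Stroke mouse 5 was the low value for Pdia6 (gap 0.639, at 50.7) and Txndc11 (gap 0.647, at 62.7). Stroke mouse 6, in which more genes were above 0 than in any other mouse, was the high value for Ern1 (gap 0.646, at 21.0).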

How the results depend on the processing

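Of the 42 genes, 22 kept the sign of their log2 fold change over all 26 alternatives and 20 changed it in at least 1. The genes of the table called at an unadjusted p under 0.05 (770 in the reported limma fit) numbered 1768 with no filter on low values, 417 with the same total, 414 with antibody genes removed first, 1569 with quality weights and 564 (without sham control 2) to 2095 (without sham control 6) with each mouse left out in turn. At an adjusted p under 0.05, 1 gene passed with the filter on the mean over all mice and 0 to 1 (without sham control 1) with each mouse left out. Of the 42 genes, 2 were called with median-of-ratios scaling (2.51% of all genes were called lower), 2 with quantile normalization (2.6%), 14 with quality weights (5.58%), 2 without the 4 mice that stand apart (1.92%) and 0 to 20 with each mouse left out (20 without sham control 6, beside 9.2%, 2 without stroke mouse 1, beside 2.38%, and 0 without sham control 1 or 2 or stroke mouse 4 or 5). With the same total, the median was 0.13 over all genes and -0.11 over the 42 genes, so the difference of -0.24 between them hardly moved. The median of the 42 genes was reversed, at 0.0048, by the epithelial covariate.

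The replicate numbers do not pair the mice by the labels, and 4 of 6 same-numbered pairs had deviations correlated above 0.1 (mean 0.218, compared with -0.0414 in other pairs), with 4 of 12 mice correlating best with their own number. With the replicate block 1174 genes and 3 of the 42 (Hspa5, Sec61g and Manf) were called (3.21% of all genes lower), and with median-of-ratios scaling and the replicate block 1248 genes and 9 of the 42 (4.97%), chosen after seeing the data.

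Among the genes given in full, Mzb1 reversed with the epithelial covariate (0.071). Atf6 reversed with the same total (0.086), with antibody genes removed (0.082) and with the covariate (0.0058), and ran from -0.071 to 0.0029 with each mouse left out. Atf4 reversed in the same settings (0.069, 0.065 and 0.025). Ddit3 ran from -0.0070 to 0.26 with each mouse left out and was -0.15 without sham controls 1, 2 and 6 and stroke mouse 6 together. The causes were not tested. All 4 relations kept their sign and stayed past the threshold in the 16 alternatives run for them. Depth is unknown and sets no limit that can be stated.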
